A study of Homo sapiens with 15 samples.

Results

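The mitochondrial respiratory chain was measured here through 128 probes for 103 nuclear genes, out of 30585 probes (25063 genes) that were above background on the array. A probe belonged to the set when the RefSeq accession it carries is that of a gene whose symbol begins with NDUFA, NDUFB, NDUFC, NDUFS, NDUFV, UQCR, ATP5 or COX and a digit, or is SDHA, SDHB, SDHC, SDHD or CYC1; pseudogenes and antisense transcripts were left out. The rule uses names and no measured value. The samples were 15 tumors grown from HCT116, a human colon carcinoma cell line, under the skin of athymic nude mice, which lack a functional thymus and hence mature T cells. Before injection the cells had been transiently transfected with 1 of 5 constructs, and 3 tumors of each were hybridized: empty vector (Vector), wild-type Myc-tagged MOAP-1 (MOAP-1), Myc-tagged MOAP-1 in which a lysine was replaced by arginine (K264R or K278R), or RASSF1A. MOAP-1 binds the apoptosis effector BAX at the outer mitochondrial membrane, and RASSF1A is a tumor suppressor that binds MOAP-1. The comparisons asked how expression in the tumors differed with each construct. All tumors came from 1 cell line, the constructs were not stably integrated, and RNA of whole tumors was labelled, so that fewer cells of a type and less RNA per cell cannot be told apart.

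In the respiratory chain, complex I takes electrons from NADH and complex II takes them from succinate. Complex III passes them to cytochrome c, complex IV hands them to oxygen, and complexes I, III and IV pump protons across the inner membrane. Complex V, the ATP synthase, lets the protons return and makes ATP. Each complex except complex II joins subunits encoded in the nucleus to subunits encoded in mitochondrial DNA, and dedicated assembly factors insert the cofactors and put the parts together. The mitochondrially encoded subunits were not analysed here. The set held 42 probes for 37 genes of complex I subunits, 10 for 8 complex I assembly factors, 11 for the 4 subunits of complex II, 13 for 9 genes of complex III, 19 for 17 genes of complex IV subunits, 12 for 9 complex IV assembly factors and 21 for 19 genes of complex V.

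Levels are log2 of the background-subtracted signal relative to the 75th percentile of the same array, so 0 is that percentile. All 128 probes passed the filter (a signal well above background in each of the 3 tumors for 1 construct or more) and 127 were above background on all 15 arrays; the exception, COX7B2, was above it on 6. The members were bright: their median lay at the 92.1st percentile of all kept probes by mean level. The MOAP1 probe read 0.34, 0.71 and 0.71 with MOAP-1, between 0.11 and 0.53 with K264R and K278R, and −0.18, −0.53 and −0.13 with Vector (MOAP-1 minus Vector 0.86, limma adjusted p = 0.000842). HCT116 cells also contain MOAP-1 of their own, and whether this probe reads the construct was not tested. The RASSF1 probe did not read higher in the tumors labelled RASSF1A (1.55 to 1.59) than in the Vector tumors (1.52 to 1.81). All 16 markers listed for colon epithelium were above background on every array. No slide held a tumor of a MOAP-1 form together with a Vector or RASSF1A tumor, so slide and construct cannot be told apart in those comparisons. The scan date of RASSF1A tumors 1 and 2 was later than that of the others. The labels do not say that the 3 tumors of a construct came from separate transfections, so the p-values measure the spread between these samples.

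Respiratory chain genes were called in both directions in the MOAP-1 tumors. By adjusted p alone, the share of falls was over that of all kept probes and the share of rises was near it. Against Vector, 62 of the 128 probes passed an adjusted p of 0.05 (limma over all kept probes, Benjamini-Hochberg), of which 23 were higher and 39 lower, whereas 30.5% of all kept probes passed (16.1% higher and 14.5% lower). The median member differed by −0.17 on the log2 scale and the median of all kept probes by 0.02. At a change of at least 1.5-fold as well, 17 probes were higher and 9 lower (9.92% and 6.69% of all kept probes). Counted at the brightest probe of each gene, 14 of the 103 genes were higher and 37 lower (13.6% and 35.9%), against 14.3% and 15.3% of all 25063 genes. Genes that rose at their brightest probe included the catalytic beta subunit of ATP synthase, the iron-sulfur subunit of complex II and core subunits of complex I. Those that fell at it included NDUFB7 of complex I, UQCRB of complex III, COX6A1 of complex IV and ATP5MK of complex V. Without Vector tumor 2, 36 probes passed (15 higher and 21 lower), beside 19.1% of all kept probes.

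The K264R and K278R tumors were compared with the same 3 Vector tumors. In K264R, 55 probes passed, against 34.9% of all kept probes. Of the members 29 were higher and 26 lower (22.7% and 20.3%, against 15.1% and 19.8% of all kept probes). Unlike in MOAP-1, the share of rises was over that of all kept probes and the share of falls near it. The median member differed by −0.15 (all kept probes −0.05). In K278R, 42 passed, against 20.6% of all kept probes. There 17 were higher and 25 lower (13.3% and 19.5%, against 12.7% and 7.97% of all kept probes), with a median of −0.18 (all kept probes 0.06). As in MOAP-1, the falls were over the share of all kept probes and the rises near it. Because the 3 comparisons share their Vector arrays, the values for each form are given side by side and the overlap is not independent support. There were 17 probes higher in all 3 forms and 19 lower in all 3, and none was called in opposite directions by 2 forms. The same overlap was not counted over all kept probes, so these counts have no background to be read against. The K278R count rested on single arrays: it was 11 without Vector tumor 2, 23 without K278R tumor 1 and 14 without K278R tumor 3. The K264R count was 34 without Vector tumor 2, beside 25.6% of all kept probes.

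No respiratory chain probe passed in RASSF1A against Vector (0% of all kept probes), in MOAP-1 against K264R (0.00327%) or in MOAP-1 against K278R (0%) by limma. At an unadjusted p under 0.05, limma gave 10, 8 and 7 probes, beside 12.1%, 10.9% and 9.22% of all kept probes. The ordinary unpaired test of the study's methods gave 5, 23 and 7 probes. Its share over all kept probes was not counted at that threshold. A probe that missed the threshold is not thereby shown to be equal: the standard error of a difference between constructs was 0.21 for ATP5F1B and 0.39 for NDUFA9. Without RASSF1A tumor 3, 8 probes were lower in RASSF1A than in Vector, beside 5.67% of all kept probes.

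Against RASSF1A, 80 probes passed in the MOAP-1 tumors, 24 higher and 56 lower, beside 37.3% of all kept probes (19.2% higher and 18% lower), and the median member differed by −0.26 (all kept probes −0.01). With scan day as a block the count was 24 (14 higher and 10 lower), beside 12.4% of all kept probes. That block leaves RASSF1A tumor 3 as the only RASSF1A array compared with MOAP-1 within a scan day. Over the 5 constructs together, 74 members passed the F-test, 57.8% of the set against 43.4% of all kept probes.

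**Figure D1:**
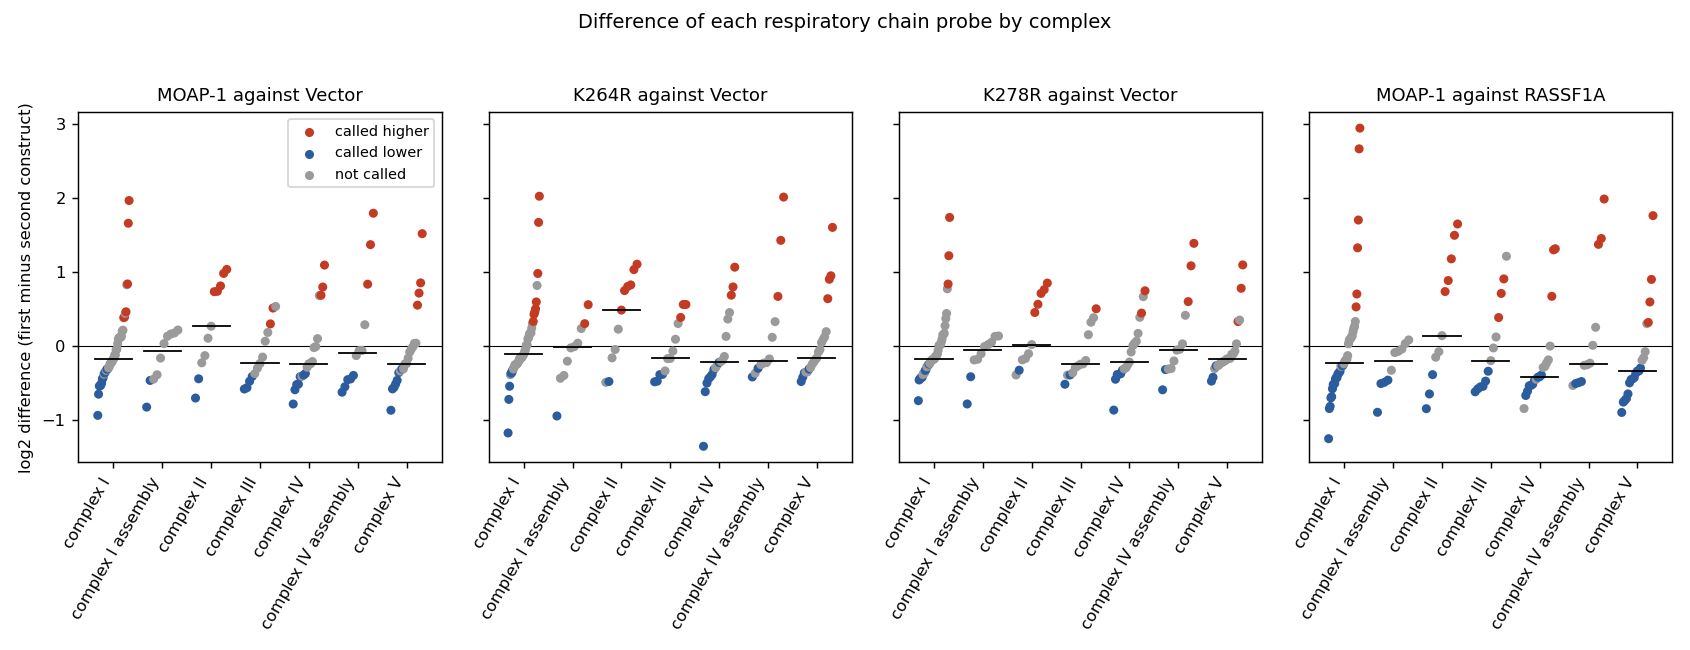
Log2 difference (y axis) of each of the 128 respiratory chain probes in 4 comparisons (panels), grouped along the x axis by complex, with colored points for probes passing an adjusted p of 0.05 and a bar at each group's median. Complex II is the only group with a median above 0 in MOAP-1 against Vector (0.26), and the points of every other complex spread to both sides of 0.

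Each motif counted below was absent from most members with a promoter, so the promoters printed here do not stand for the set. They are examples from genes called in the same direction in all 3 MOAP-1 forms, higher or lower. Each is the 250 bases before the RefSeq transcription start, on the strand of the gene (build GRCh38.p14). Capitals mark the NRF1 core letters GCATGCGC or the ETS letters CCGGAAG on either strand; NRF1 and the ETS factor GABP are known activators of respiratory chain genes. SDHB and COX10 were higher, and SDHD (at its brightest probe), COX5B and COX6A1 were lower.
SDHB (chr1:17054033-17054282, minus strand): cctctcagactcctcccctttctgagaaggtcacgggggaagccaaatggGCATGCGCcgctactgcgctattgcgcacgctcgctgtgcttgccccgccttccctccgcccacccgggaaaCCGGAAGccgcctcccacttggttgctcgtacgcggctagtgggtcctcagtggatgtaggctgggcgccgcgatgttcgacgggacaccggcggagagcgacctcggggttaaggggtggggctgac
COX10 (chr17:14069254-14069503, plus strand): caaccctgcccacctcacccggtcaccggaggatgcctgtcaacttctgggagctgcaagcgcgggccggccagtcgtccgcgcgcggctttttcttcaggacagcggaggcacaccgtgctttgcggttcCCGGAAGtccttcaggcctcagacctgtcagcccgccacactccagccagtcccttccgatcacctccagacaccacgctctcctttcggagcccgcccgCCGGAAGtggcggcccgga
SDHD (chr11:112086623-112086872, plus strand): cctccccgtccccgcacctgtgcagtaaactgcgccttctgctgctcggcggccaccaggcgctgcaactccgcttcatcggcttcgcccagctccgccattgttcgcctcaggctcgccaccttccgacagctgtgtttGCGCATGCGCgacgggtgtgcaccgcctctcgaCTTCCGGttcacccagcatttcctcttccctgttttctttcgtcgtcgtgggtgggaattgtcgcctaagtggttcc
COX5B (chr2:97645812-97646061, plus strand): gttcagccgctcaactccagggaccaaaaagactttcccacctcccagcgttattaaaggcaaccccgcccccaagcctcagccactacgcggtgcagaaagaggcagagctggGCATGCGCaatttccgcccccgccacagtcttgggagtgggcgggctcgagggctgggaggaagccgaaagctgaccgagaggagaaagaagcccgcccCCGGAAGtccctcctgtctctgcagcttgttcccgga
COX6A1 (chr12:120437863-120438112, plus strand): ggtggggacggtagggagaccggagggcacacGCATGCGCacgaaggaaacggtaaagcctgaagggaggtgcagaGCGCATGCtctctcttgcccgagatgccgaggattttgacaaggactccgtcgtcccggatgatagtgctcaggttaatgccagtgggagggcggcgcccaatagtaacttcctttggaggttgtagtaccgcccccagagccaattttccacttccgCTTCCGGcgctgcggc
The SDHB, SDHD, COX5B and COX6A1 promoters each hold an NRF1 core and an ETS motif, and the COX10 promoter holds the ETS motif at 2 places. A promoter was found for 85 of the 103 genes. In the window from 250 bases before to 50 after the start, on both strands, the NRF1 core was present in 18 of them, 21.2% against 3.68% of all 27305 genes with a promoter. The full NRF1 motif, which contains that core, was present in 7 (8.24% against 1.52%). The ETS motif was present in 27 (31.8% against 12.2%), and AAGATGGC, the core of the YY1 motif, in 14 (16.5% against 3.52%). The SP1 motif GGGGCGGGG was about as frequent in members (18.8%) as in all genes (18.5%). Among genes higher in all 3 forms, 11 had a promoter, of which 1 held the NRF1 core, 5 the ETS motif and 4 the YY1 core. Among those lower in all 3, 17 had a promoter, of which 5 held the NRF1 core, 7 the ETS motif and 1 the YY1 core. These matches describe letters, not bound sites.

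In complex I, 6 of 42 subunit probes were higher and 12 lower in MOAP-1 than in Vector, with a median of −0.18. NDUFA9, an accessory subunit of the arm that faces the matrix, read 1.20, 1.06 and 1.13 in MOAP-1, −0.33, −1.36 and 0.11 in Vector, 1.05, 1.37 and 1.01 in K264R, 0.66, 0.53 and 0.88 in K278R, and −1.86, −2.21 and −0.53 in RASSF1A. Every tumor of a MOAP-1 form was above every Vector and RASSF1A tumor, and the Vector tumors were spread more widely than the MOAP-1 tumors. The difference from Vector was 1.66 ± 0.39 (SE, n = 3 tumors per construct), a 3.15-fold rise (limma adjusted p = 0.00665), with 1.67 in K264R and 1.22 in K278R; against RASSF1A it was 6.34-fold (adjusted p = 0.000217). NDUFS3 and NDUFV2, core subunits of the same arm, rose by smaller amounts: 0.38 (adjusted p = 0.0115) and 0.39 (adjusted p = 0.0121).

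Other core subunits of complex I did not pass the test against Vector. NDUFV1, which carries the NADH-binding site, differed by −0.13 ± 0.13 (adjusted p = 0.474), and NDUFS1, the largest subunit of the matrix arm, by −0.13 ± 0.08 (adjusted p = 0.255). Among accessory subunits, NDUFB7 fell furthest. It read 2.85, 2.84 and 3.02 in MOAP-1, 3.98, 3.98 and 3.58 in Vector, 2.57, 2.86 and 2.57 in K264R, 3.32, 2.97 and 3.02 in K278R, and 4.39, 4.14 and 3.96 in RASSF1A. The tumors of the 3 MOAP-1 forms lay below all Vector and RASSF1A tumors, and the fall from Vector was 1.92-fold (−0.94 ± 0.15, adjusted p = 0.000717), with −1.18 in K264R and −0.74 in K278R. NDUFA3, NDUFA12 (at 1 of its 2 probes) and NDUFB4, also accessory subunits, were lower in all 3 forms, by −0.54, −0.50 and −0.45 in MOAP-1. The other NDUFA12 probe was not called: it differed by 0.13 in MOAP-1, 0.17 in K264R and 0.01 in K278R. Of 10 assembly factor probes, 2 were lower and none higher. NDUFAF2, an assembly factor that acts late in building the matrix arm, read 0.38, 0.24 and 0.30 in MOAP-1 against 1.099, 1.22 and 1.09 in Vector, a 1.78-fold fall (−0.83 ± 0.10, adjusted p = 0.000223), and it had the smallest F-test p of the set.

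Complex II, whose 4 subunits are all nuclear, was the group with the highest share of rises: 5 of 11 probes higher and 2 lower in MOAP-1 (median 0.26), 6 and 1 in K264R (median 0.48), and 5 and 1 in K278R. SDHB, the iron-sulfur subunit, read 1.65, 1.74 and 1.73 in MOAP-1, 0.85, 0.64 and 1.20 in Vector, 1.66, 1.81 and 1.62 in K264R, 1.49, 1.30 and 1.59 in K278R, and 0.81, 0.66 and 1.00 in RASSF1A. The 9 tumors of the MOAP-1 forms did not overlap with the 6 others, and the rise from Vector was 1.75-fold (0.81 ± 0.14, adjusted p = 0.00106). SDHD, a membrane anchor, went the other way at its brightest probe. It read 2.10, 2.05 and 2.18 in MOAP-1 and 2.57, 2.58 and 2.52 in Vector (−0.45 ± 0.08, adjusted p = 0.00186), and the groups did not overlap. The other 2 SDHD probes did not pass in MOAP-1, and 1 of them was higher in K264R (0.48, adjusted p = 0.0169), where the brightest was lower (−0.48, adjusted p = 0.000833), so that SDHD was called both ways there. SDHA, the flavoprotein that oxidizes succinate, rose at 3 of its 4 probes, by 0.74, 0.98 and 1.03, while the brightest read −0.23 (adjusted p = 0.146). SDHC, the other anchor, was called up at 1 probe (0.73) and down at another (−0.71), and the third, its brightest, read −0.13 (adjusted p = 0.376).

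In complex III, 2 of 13 probes were higher and 4 lower in MOAP-1 (median −0.24). UQCRC1, a core subunit, read 2.30, 2.33 and 2.17 in MOAP-1 and 1.85, 1.52 and 1.91 in Vector (0.51 ± 0.16, adjusted p = 0.0274). CYC1, the cytochrome c1 heme subunit, differed by 0.53 ± 0.19, just outside the threshold (adjusted p = 0.0507), and passed in K264R (0.56, adjusted p = 0.0376) and against RASSF1A (0.90, adjusted p = 0.00257). The remaining catalytic and core subunits did not rise: UQCRC2 differed by −0.15 (adjusted p = 0.223) and UQCRFS1, the Rieske iron-sulfur protein, by −0.30 (adjusted p = 0.0649). UQCRB, a small subunit that binds ubiquinone, fell at its brighter probe. It read 3.66, 3.62 and 3.60 in MOAP-1, 4.20, 4.20 and 4.23 in Vector, 3.75, 3.69 and 3.75 in K264R, 3.71, 3.996 and 3.74 in K278R, and 4.18, 4.28 and 4.17 in RASSF1A. No tumor of a MOAP-1 form reached the lowest Vector or RASSF1A tumor, and the fall from Vector was 1.50-fold (−0.59 ± 0.09, adjusted p = 0.000505). The second UQCRB probe was not called against Vector: it differed by 0.06 in MOAP-1, 0.09 in K264R and −0.27 in K278R.

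UQCRH, the hinge protein that helps cytochrome c1 bind cytochrome c, was lower at its brightest probe (−0.57, adjusted p = 0.00558). Its second probe, measured by 1 spot per array, read −0.01 in RASSF1A tumor 3 and between 4.62 and 5.23 in the other 14 tumors, although that spot was not marked as an outlier by the scanner software. With that spot the probe differed by 1.21 in MOAP-1 against RASSF1A (adjusted p = 0.345), and without it by −0.53 (adjusted p = 0.000926). Against Vector the MOAP-1 difference was −0.38 in both cases, with an adjusted p of 0.791 with the spot and 0.00543 without it.

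In complex IV, 3 of 19 subunit probes were higher and 7 lower in MOAP-1 (median −0.24), and of the 12 assembly factor probes 3 were higher and 5 lower. COX4I1, the ubiquitous form of the regulatory subunit 4, read 4.20, 4.02 and 4.12 in MOAP-1, 3.29, 2.90 and 3.77 in Vector, 4.09, 4.20 and 4.05 in K264R, 4.07, 3.87 and 4.01 in K278R, and 2.69, 2.33 and 3.42 in RASSF1A. All tumors of the MOAP-1 forms were above all others; the rise was 1.73-fold in MOAP-1 (0.79 ± 0.24, adjusted p = 0.024) and did not pass in K278R (0.66, adjusted p = 0.0647). COX4I2, its hypoxia-induced paralog, differed by −0.21 (adjusted p = 0.16). The small subunits COX6A1, COX6C, COX7C, COX5B and COX7B were lower in all 3 forms, and in MOAP-1 they fell by 0.52, 0.60, 0.53, 0.42 and 0.38 on the log2 scale. COX6A1, which read 5.35, 5.15 and 5.26 in MOAP-1 and 5.67, 5.86 and 5.79 in Vector, did not overlap between those groups.

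Among paralogs that are usually confined to some tissues, COX6A2, the heart and muscle form of subunit 6A, fell in all 3 forms. It read −0.25, −0.10 and −0.18 in MOAP-1 and 0.32, 0.94 and 0.58 in Vector (−0.79, adjusted p = 0.0205), and the difference was −1.36 in K264R (adjusted p = 0.000709). COX7A1, the muscle form of subunit 7A, rose by 0.68 (adjusted p = 0.00372) at the 21.7th percentile of brightness. Its ubiquitous paralog COX7A2 fell by 0.40 on the log2 scale (adjusted p = 0.0347). COX6B1, the ubiquitous subunit 6B, passed in K264R (−0.32, adjusted p = 0.0357) and not in MOAP-1 (−0.24, adjusted p = 0.104), and its testis paralog COX6B2 did not pass in either. COX8A, the ubiquitous subunit 8, likewise passed in K264R (−0.42, adjusted p = 0.0102) and not in MOAP-1 (−0.29, adjusted p = 0.0601), and COX8C did not pass in either. None of the 9 muscle markers tested was called in MOAP-1 against Vector, but the summed signal of the muscle list, relative to the 75th percentile of the array, was 3.85 to 36.7 in the Vector tumors, 5.68 to 17.98 in RASSF1A and 3.24 to 4.48 in MOAP-1; its part in the COX6A2 difference was not tested.

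The largest rise among complex IV assembly factors at a gene's brightest probe was that of COX10, which makes heme O, a precursor of the heme A of complex IV. It read −2.72, −2.62 and −2.96 in MOAP-1, −4.27, −4.43 and −3.71 in Vector, −2.75, −2.63 and −2.76 in K264R, −3.11, −3.17 and −2.89 in K278R, and −4.15, −4.56 and −3.96 in RASSF1A. The groups of the MOAP-1 forms and the others did not overlap, and the rise was 2.58-fold (1.37 ± 0.19, adjusted p = 0.000322). The probe was dim, at the 30.7th percentile. With the normexp background model its difference from Vector was −0.49, where the median of all kept probes was −0.53. COX17, a copper chaperone, was lower in MOAP-1 (−0.63, adjusted p = 0.032), where tumor 3 read 1.56 and the other two 2.35 and 2.37; the 3 Vector tumors read 2.63 to 2.83.

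In complex V, 4 of 21 probes were higher and 7 lower in MOAP-1 (median −0.24). The 4 that rose were the 3 largest subunits of the F1 catalytic head and ATP5MC1, 1 of 3 genes for the same ring subunit. ATP5F1B, the catalytic beta subunit, read 2.84, 2.88 and 2.65 in MOAP-1, 1.31, 0.80 and 1.72 in Vector, 2.85, 2.96 and 2.82 in K264R, 2.17, 2.25 and 2.68 in K278R, and 1.16, 0.72 and 1.21 in RASSF1A. Each tumor of a MOAP-1 form was above each Vector and RASSF1A tumor, and K278R lay between K264R and Vector. The rise from Vector was 2.86-fold in MOAP-1 (1.52 ± 0.21, adjusted p = 0.000327), 3.03-fold in K264R and 2.13-fold in K278R. ATP5F1A, the alpha subunit, rose by 0.55 ± 0.11 (adjusted p = 0.00255), and ATP5F1C, the gamma subunit that turns inside the head, by 0.71 ± 0.13 (adjusted p = 0.00137).

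The 3 genes for the c subunit of the proton ring, which encode the same mature protein, did not move alike. ATP5MC1 rose by 0.85 ± 0.17 (adjusted p = 0.00314), ATP5MC2 fell by 0.31 on the log2 scale (adjusted p = 0.0161), and ATP5MC3 differed by −0.09 (adjusted p = 0.632). ATP5MK and ATP5MJ, small subunits of the membrane part, were called lower in all 3 forms. For ATP5MK in K278R the adjusted p was 0.0498 by limma. Under 21 alternative ways of processing, ATP5MK kept its call in 20 in MOAP-1, 12 in K264R and 6 in K278R. The same counts for ATP5MJ were 20, 19 and 13. ATP5MK read 4.45, 4.37 and 4.34 in MOAP-1, 5.09, 5.37 and 5.31 in Vector, 4.79, 4.70 and 4.83 in K264R, 4.56, 5.24 and 4.54 in K278R, and 5.20, 5.44 and 5.22 in RASSF1A. Its MOAP-1 and Vector tumors did not overlap, while K278R tumor 2 lay inside the Vector range. The fall in MOAP-1 was 1.83-fold (−0.87 ± 0.16, adjusted p = 0.00162). ATP5MJ fell by 0.58 on the log2 scale (adjusted p = 0.00287), and ATP5IF1, which blocks the reverse reaction of the enzyme, by 0.56 (adjusted p = 0.016).

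**Figure D2:**
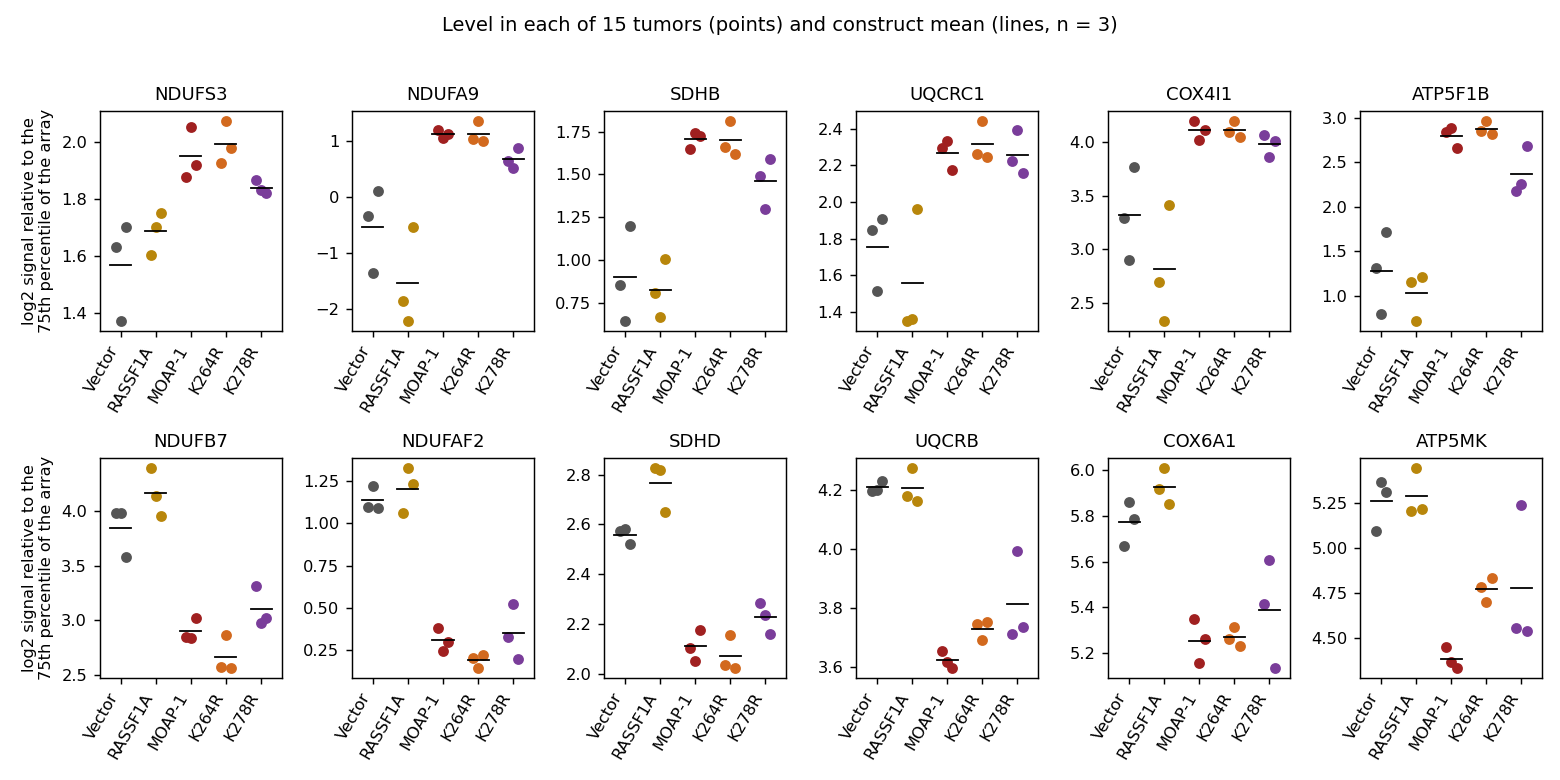
Level of 12 genes at their brightest probe in each of the 15 tumors (y axis, log2 signal relative to the 75th percentile of the array; points are tumors, bars are construct means, n = 3). In the genes that rose, such as NDUFA9, Vector tumor 2 (−1.36) is the lowest Vector tumor, and in NDUFB7, NDUFAF2, SDHD, UQCRB and COX6A1 the tumors of the 3 MOAP-1 forms lie below those of Vector and RASSF1A, whereas ATP5MK in K278R tumor 2 (5.24) does not.

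The members were also spread over a narrower range of levels in the tumors of the MOAP-1 forms. The interquartile range over the 128 probes of an array was 2.85 to 3.02 in MOAP-1, 2.98 to 3.05 in K264R and 3.01 to 3.23 in K278R, and 3.42 to 3.63 in Vector and 3.77 to 3.99 in RASSF1A. Over all kept probes the same range was 3.81 to 4.06 in the 3 MOAP-1 forms and 4.01 to 4.12 in Vector and RASSF1A. The members that rose were dimmer than those that fell: in MOAP-1 against Vector the median probe that rose lay at the 76.1st percentile of brightness and the median probe that fell at the 94.8th.

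Brightness divided the calls among all probes as well. Of the 10% of kept probes with the highest mean level, 35.9% were lower and 6.73% higher in MOAP-1 than in Vector (median −0.23). The 78 members among them had 42.3% lower and 6.41% higher (median −0.31). Of the 50 dimmer members, 18 were higher and 6 lower (36.0% and 12%), and of all dimmer kept probes 17.1% and 12.1%. In K264R the bright members had 22 lower and 5 higher (28.2% and 6.41%, against 41.5% and 7.22% of all bright probes), and the dimmer members 24 higher and 4 lower (48.0% and 8.0%, against 16% and 17.4%). The K278R tumors gave 20 lower and 2 higher among the bright members (25.6% and 2.56%, against 23.6% and 4.09% of all bright probes), and 15 higher and 5 lower among the dimmer (30.0% and 10%, against 13.6% and 6.23%). The share of falls among bright members was thus near that of all bright probes in MOAP-1 and K278R and under it in K264R, and the share of rises among dimmer members was over that of all dimmer probes in the 3 forms. The part of brightness in these differences was not tested.

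**Figure D3:**
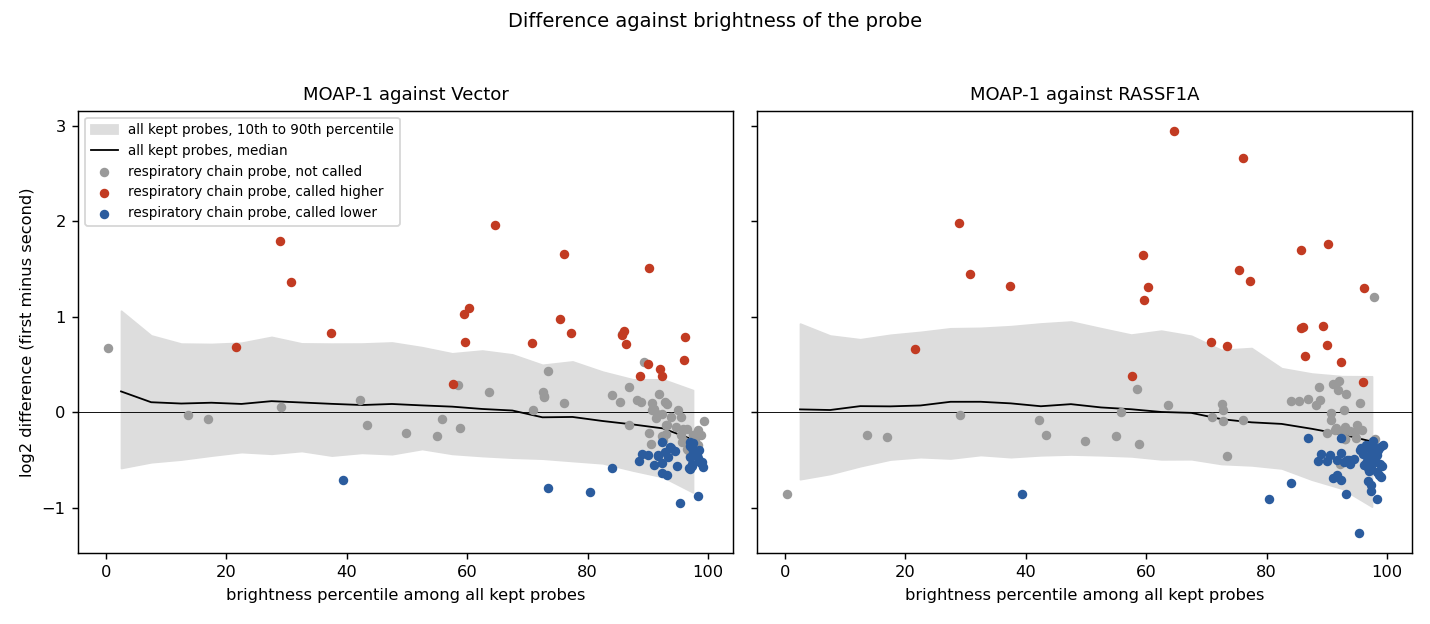
Log2 difference of each respiratory chain probe (y axis, points) against its percentile of mean brightness among all kept probes (x axis) in MOAP-1 against Vector and MOAP-1 against RASSF1A, with the median of all kept probes as a line and their 10th to 90th percentile as a band. The median of all probes falls to about the level of the bright members at the right edge (−0.23 for the brightest 10% in MOAP-1 against Vector), while the dimmer members spread upward.

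The direction of the calls depended on the scaling. With quantile normalization, 25 members were higher and 19 lower in MOAP-1 against Vector (56.8% of calls higher, 37.1% with the 75th percentile), 38 and 11 in K264R, 18 and 8 in K278R, and 29 and 31 against RASSF1A. With each array's median set to 0, 18 were higher and 62 lower in MOAP-1 (22.5% of calls higher), 25 and 37 in K264R, 9 and 41 in K278R, and 22 and 75 against RASSF1A; this scaling moved the median of all kept probes to −0.13 in MOAP-1 and K264R, −0.07 in K278R and −0.20 against RASSF1A. The rises held under quantile normalization more often than the falls: 22 of the 23 higher calls and 17 of the 39 lower calls in MOAP-1 were kept, and 29 of 29 and 9 of 26 in K264R. No call turned its direction under either scaling. The shares of all kept probes called in each direction with quantile normalization or median scaling are not given here. These member counts therefore cannot be read against the whole array.

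**Figure D4:**
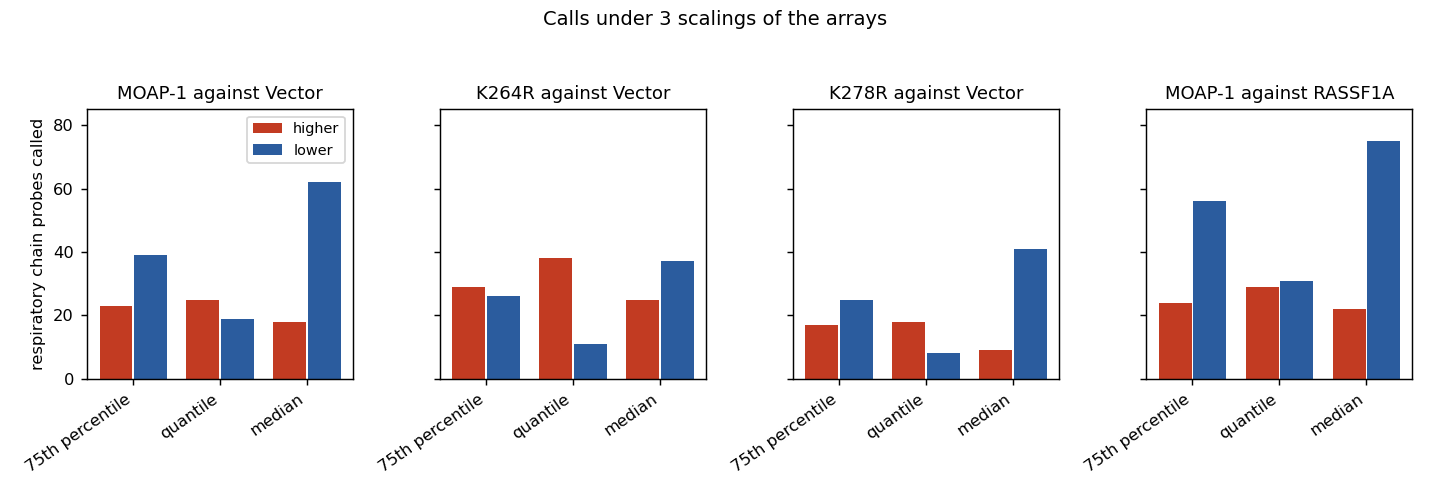
Number of respiratory chain probes called higher and lower (bars, y axis from 0) under scaling to the 75th percentile, quantile normalization and scaling to the median, in 4 comparisons. Lower calls in MOAP-1 against Vector range from 19 with quantile normalization to 62 with the array median, while higher calls stay between 18 and 25. The shares of all kept probes are not shown.

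There were 20 genes with more than 1 probe, and their probes often disagreed. In MOAP-1 against Vector the probes of 13 of these genes had opposite signs, and 2 genes, SDHC and COX20, were called in both directions. COX20, an assembly factor that stabilizes newly made COX2, read 0.88, 0.72 and 0.85 in MOAP-1 against −0.01, −0.32 and 0.27 in Vector at 1 probe, and 3.07, 2.96 and 2.86 against 3.34, 3.69 and 3.52 at the other. The first was higher and the second lower in all 3 forms. COX15, which converts heme O to heme A, rose by 1.79 at 1 probe and differed by 0.28 (adjusted p = 0.19) at the brighter. COX7A2L, which joins complex III to complex IV in supercomplexes, rose by 1.09 at 1 probe and differed by 0.10 (adjusted p = 0.45) at the brighter. For NDUFA10, an accessory subunit of complex I, the values were 0.84 (adjusted p = 0.0236) and −0.06 (adjusted p = 0.775). The median range between probes of a gene was 0.64 in MOAP-1 against Vector and 0.13 in RASSF1A against Vector. Where along the transcripts these probes lie is not given in the sources used here.

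**Figure D5:**
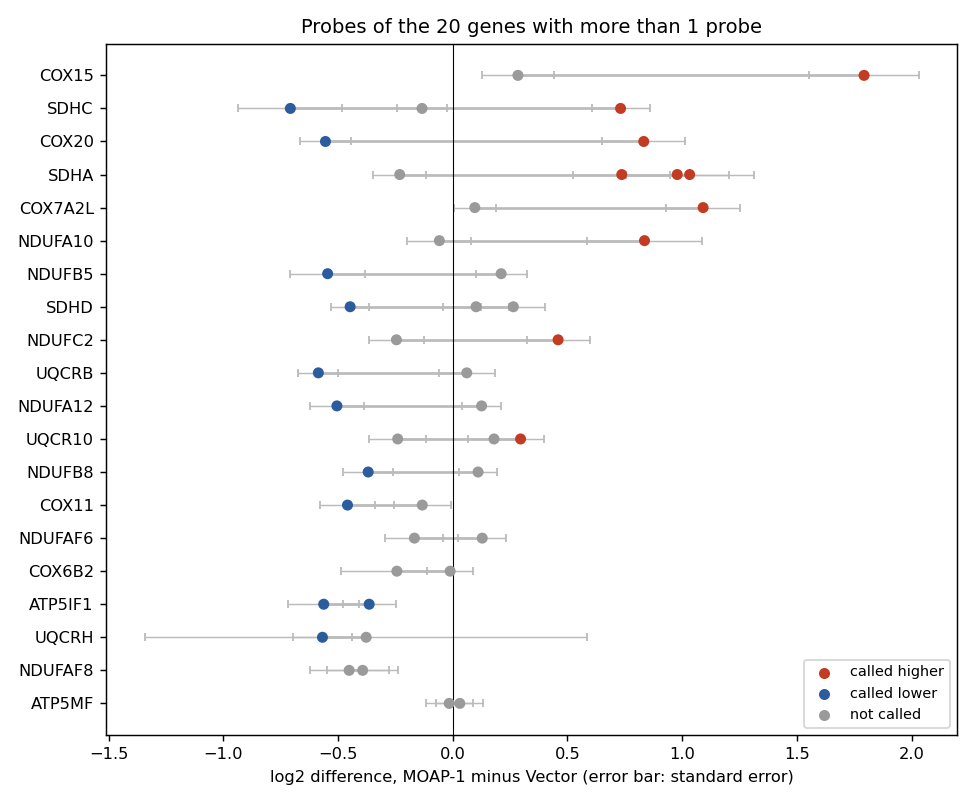
Log2 difference between MOAP-1 and Vector (x axis) with its standard error for each probe of the 20 genes that had more than 1 (y axis). Probes of SDHA, SDHC, COX15, COX20 and COX7A2L lie far apart, as in COX15 with 1.79 and 0.28.

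Other genes of mitochondrial metabolism were read at the brightest probe of each, for MOAP-1 against Vector unless stated, where 14.3% of all genes were higher and 15.3% lower. Of 40 assembly factors outside the set, 10 were higher and 3 lower (25% and 7.5%). Of 19 genes of the tricarboxylic acid cycle, which feeds NADH and succinate to the chain, 8 were higher and 1 lower (median 0.38). Of 20 genes for electron carriers and metabolite exchange, 8 were higher and 1 lower (median 0.24), and of 25 for mitochondrial import 6 and 3. Of 76 mitochondrial ribosomal protein genes, 12 were higher and 8 lower (median −0.07). Cytosolic ribosomal protein genes had 2 of 77 higher and 41 lower (median −0.34). No gene of any of these lists was called in RASSF1A against Vector.

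Of 19 regulators of mitochondrial gene expression, 2 were higher and 2 lower in MOAP-1, beside 14.3% and 15.3% of all genes. In K264R 6 were higher and 2 lower, beside 13.6% and 20.6% of all genes. NRF1, the activator whose motif is marked in the promoters above, rose by 1.11 in MOAP-1 (adjusted p = 0.00209), 1.05 in K264R and 0.95 in K278R. TFAM, which packages and transcribes mitochondrial DNA, fell by 0.74 (adjusted p = 0.00131), 0.99 and 0.67 on the log2 scale. Of 27 proliferation genes 15 were higher and none lower in MOAP-1 (median 0.37). Of the host and other cell type markers, 1 of 10 stromal, 2 of 10 endothelial and 1 of 12 leukocyte markers were higher, and none, none and 4 lower. Of 8 erythroid markers 1 was higher and 1 lower, and of the 16 epithelial markers none was higher and 3 were lower. The summed signal of a list, relative to the 75th percentile of the array, was 273 to 323 in MOAP-1 and 336 to 397 in Vector for the epithelial list, 8.09 to 52.1 and 3.50 to 23.05 for the stromal list, 3.76 to 4.34 and 3.59 to 3.76 for the endothelial list, 42.0 to 49.6 and 50.2 to 59.9 for the leukocyte list, and 13.3 to 17.6 and 15.6 to 18.1 for the erythroid list. Stromal markers COL6A3, LUM and FBN1 were above background on no array, and from 8 to 11 of the 14 stromal markers were above it on any 1 array. The part of these lists in the respiratory chain differences was not tested.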

How the data were processed

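Total RNA of 15 xenograft tumors was labelled with Cy3 and hybridized to single-color Agilent arrays. Per the file headers, the deposited scanner files hold intensity values made by Agilent Feature Extraction 10.5.1.1, while the labels name version 9.1; the authors also deposited a log2 table of the same arrays, used only as an alternative, in which 8 columns follow their own array and 7 another array of the same construct. The processed signals, already background-subtracted, were divided by the 75th percentile of each array, set to log2, averaged over the spots of a probe without control and outlier spots, and kept where the scanner software called the signal well above background in each of the 3 tumors for 1 construct or more (30585 of 34127 probes). Of the 34127 probes, 25422 were named by RefSeq accession. limma 3.58.1 in R 4.3.3 was fitted to all 15 arrays with construct as the only term (residual degrees of freedom: 10). The Benjamini-Hochberg adjustment ran over the 30585 kept probes. The script was tested on simulated data. Genes named in the text were core catalytic subunits and tissue paralogs, the largest calls of each complex at a gene's brightest probe, the smallest F-test p-values and genes called both ways; others are named as examples. The members and lists were chosen with earlier results of these data known. Marker and pathway lists held 40, 19, 19, 25, 20, 24, 27, 76, 77, 16, 10, 10, 12, 8 and 9 kept genes for assembly factors, biogenesis, tricarboxylic acid cycle, import, carriers, hypoxia, proliferation, mitochondrial and cytosolic ribosome, epithelium, stroma, endothelium, leukocytes, erythroid cells and muscle. The number of arrays limits the precision. Alternatives covered scaling, background model, filter, blocks, array weights, the unpaired t-test of the study's methods and leaving out tumors.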

Additional observations from a re-analysis of the deposited data

Results flagged for a closer look

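The difference between MOAP-1 and Vector was unlike that between RASSF1A and Vector within the respiratory chain. No slide held both a MOAP-1 and a RASSF1A tumor, so slide and construct cannot be told apart here. The test of the difference between the 2 constructs, which is the direct comparison of MOAP-1 with RASSF1A, passed for 80 of the 128 probes by limma, beside 37.3% of all kept probes. With scan day as a block it passed for 24, beside 12.4% of all kept probes, RASSF1A tumors 1 and 2 being the arrays of the later day. That block leaves RASSF1A tumor 3 as the only RASSF1A array compared within a scan day. Without the block, ATP5F1B read 3.39-fold higher and NDUFB7 2.39-fold lower in MOAP-1 than in RASSF1A (limma adjusted p = 6.16e-05 and 6.58e-05), in 3 of 3 tumors each.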

How the results depend on the processing

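With the normexp background model 8 probes were called in MOAP-1 against Vector, 10 in K264R, 0 in K278R and 29 in MOAP-1 against RASSF1A. Of all kept probes it called 1.75%, 3.10%, 0.00327% and 8.11%. By the F-test 19 passed, beside 6.53% of all kept probes. The differences of COX10 (−0.49 in MOAP-1, −0.61 in K278R) and COX7A1 (−1.02 in K278R) turned negative. The median of all kept probes was then −0.53 in MOAP-1 and −0.47 in K278R. Without the 17 spots of local background over 500, an alternative chosen after seeing the data, that model called 61, 62, 28 and 76. Its shares of all kept probes are not given here. The methods' t-test after Benjamini-Hochberg adjustment called 35 in MOAP-1, 36 in K264R and 0 in K278R. Of all kept probes it called 15.1%, 25.2% and 0%. At the methods' own threshold, unadjusted with 1.5-fold, it called 25, 24 and 14 members. Of all 30585 kept probes that threshold called 4913, 5887 and 3124. In K278R, quantile normalization called 26 and a fit to the 6 arrays compared called 2, beside 17.6% and 3.99% of all kept probes. Array weights called 11 in MOAP-1 against K264R, beside 17.2% of all kept probes. With scan day as a block, 1 probe was called in RASSF1A against Vector and 24 in MOAP-1 against RASSF1A, and with slide as a fixed block 1 in RASSF1A against Vector. Leaving out 1 tumor at a time gave 36 to 59 calls in MOAP-1 against Vector, 34 to 48 in K264R, 11 to 47 in K278R, 0 to 8 in RASSF1A, 59 to 76 in MOAP-1 against RASSF1A and 61 to 88 by the F-test. For the MOAP-1 forms against Vector the lowest counts were without Vector tumor 2, beside 19.1%, 25.6% and 7.87% of all kept probes. For MOAP-1 against RASSF1A and the F-test the shares over these ranges are not given here. Leaving out Vector tumor 2 and the later scan day together, chosen after seeing the data, gave 15 in K278R, 1 in RASSF1A, 28 in MOAP-1 against RASSF1A and 32 by the F-test. With slide as a random block (correlation −0.08) the counts against Vector were 70, 65 and 52, beside 35.3%, 40.9% and 28.4% of all kept probes.

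Of 1092 values of single named genes under these alternatives, 908 kept their direction and call, 181 kept the direction and missed the threshold, and 3 turned. ATP5F1B and NDUFAF2 kept their call in MOAP-1 against Vector in 21 of 21 alternatives, and NDUFA9 in 20. In K278R against Vector, NDUFA9 kept its call in 11 and ATP5MK in 6. Causes of these changes were not tested.

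The replicate numbers did not pair the samples: the correlation of deviations was −0.25 to 0.37 between same-numbered tumors. With the replicate number as a block, 66 probes were called in MOAP-1 against Vector, 56 in K264R, 42 in K278R, 0 in RASSF1A, 0 in each comparison of MOAP-1 with a mutant and 81 against RASSF1A, and 75 passed the F-test. The shares of all kept probes were 30.7% in MOAP-1, 34.6% in K264R, 21.1% in K278R, 37.2% against RASSF1A and 42.6% by the F-test. By tumor number, no call count moved by over 1.5 times.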

Other observations

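Outside the set, COXFA4, a complex IV subunit formerly placed in complex I, was lower in all 3 MOAP-1 forms: its difference from Vector was −0.52 in MOAP-1 (limma adjusted p = 0.00246), −0.44 in K264R and −0.40 in K278R. Its paralog COXFA4L2, which replaces it under hypoxia, differed by 0.63 from Vector (adjusted p = 0.0905) and was higher in MOAP-1 than in RASSF1A (0.75, adjusted p = 0.0417). Of 24 hypoxia-responsive genes, 2 were higher in MOAP-1 than in Vector and none lower, beside 14.3% and 15.3% of all genes. In MOAP-1 against RASSF1A, 9 were higher and none lower, beside 17.2% and 19.3% of all genes. Their summed level relative to the 75th percentile was 99.2 to 154 in the RASSF1A tumors and 170 to 227 in the MOAP-1 tumors.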
